A study of Mus musculus with 2 samples.

Results

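Cadherins are calcium-dependent adhesion receptors whose outer repeats bind partners on the neighbouring cell and whose tails bind catenins, which join adherens junctions to actin. Desmosomes are a related junction: desmogleins and desmocollins span the membrane, plakoglobin and plakophilins bind their tails, and desmoplakin ties the plaque to keratin filaments. Mesothelium, the flat epithelium that covers the liver, is joined by both kinds of junction, and cells that leave it for the underlying mesenchyme are known to alter their cadherins.

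The genes described here are the numbered cadherins, the alpha-, beta- and delta-catenins, the desmogleins and desmocollins, desmoplakin (Dsp), plakoglobin (Jup), Perp and the plakophilins (Pkp). They were chosen by symbol alone, from probe sets annotated with exactly 1 gene symbol, which gave 82 probe sets of 40 genes among 45101 probe sets and 18193 genes. RNA was measured on Affymetrix mouse arrays in wild-type C57Bl6 embryos at E12.5. The first group was mesothelial cells, digested from the liver with trypsin-EDTA and sorted by FACS with antibodies to podoplanin (Pdpn). The second group was liver cells of the same genotype, strain and age, for which the sources used here do not say whether Pdpn+ cells had been removed. The labels give no number of embryos, so pooling is unknown. Each group had 1 array, so nothing was tested, no p-value is given, and every difference describes these 2 arrays and has no replicate check.

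A difference is the log2 intensity of the sorted cells minus the log2 intensity of the liver cells, taken from 1 probe set per gene, the one with the highest mean. Pairs of intensities are given with the mesothelial array first. A gene is called mesothelial-high where the sorted cells read at least 2-fold brighter, and liver-high for the reverse. The median difference over all genes was 0.66, so values are also given relative to that median. A gene was above the floor where its higher value reached the median probe set of that array, 65.8 for mesothelial and 42.3 for liver cells. A value at or under the brightest bacterial control probe set, 16.2 and 10.5, is said to be at control level. Over all genes, 36.2% were mesothelial-high and 4.16% liver-high. The 11 mesothelial markers examined were all mesothelial-high. They include Pdpn, the gene of the sorting antigen, which is no independent check of the sort. Of 8 hepatoblast and hepatocyte markers 3 were mesothelial-high, and none of the 8 was liver-high or at control level on either array. Of 6 megakaryocyte markers 6 were mesothelial-high, with a median of 2.06 and summed intensities of 22152.7 against 6480.0. Of 7 erythroid markers 5 were liver-high, with a median of -2.60 and summed intensities of 12821.5 against 35207.4. None of these blood markers was at control level, and their part in the values below was not tested. In bulk RNA, fewer cells of a type and less RNA per cell cannot be told apart.

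Taken over all members, the share of mesothelial-high genes was close to that of the whole array, and the members differed widely among themselves. Of the 40 genes, 15 (37.5%) were mesothelial-high, against 36.2% of all genes, and 1 was liver-high, against 4.16%. Counted by probe set, 32 of 82 were mesothelial-high, against 32.2% of all probe sets with 1 symbol, and 5 were liver-high, against 3.96%. These counts took in probe sets at control level. The 5 include 1 probe set each of Ctnna3, Dsc1 and Cdh7 that was at control level in mesothelial cells. The rest of the 5 were of Cdh8, so the liver-high count rests on Cdh8 alone where both arrays read above control level. The 32 include 1 probe set of Ctnnd2 at control level on both arrays. The median of the 40 was 0.79, which is 0.13 above that of all genes, over values from -1.96 to 3.62. Of the 21 genes above the floor, 12 were mesothelial-high (45.8% of all such genes were) and 1 was liver-high (3.86% of all such genes). That split of 12 to 1 became 9 to 1 when each array was centred on its median, where the shares of all such genes were 24.1% and 9.34%, and 6 to 2 when the arrays were centred on reference genes or on hybridisation controls. Under these last settings the balance of all genes above the floor reversed, with 14.1% mesothelial-high and 18.9% liver-high by reference genes, and 14.7% and 17.8% by hybridisation controls. Centring on reference genes subtracted each array's median level over 11 such genes. Their own median difference was 0.43 as deposited and -0.68 after it, so this setting did not bring the reference genes to 0. At a 4-fold threshold 7 of the 21 were past it towards mesothelial cells, against 16.1% of all genes above the floor. Passing the floor depends on the brighter array, so these counts are a description. Of the 21, 6 (28.6%) were past 2-fold towards mesothelial cells under all 5 scalings tried, which were the values as deposited, centring on array medians, on reference genes or on hybridisation controls (added after the data were seen), and quantile normalization, against 14.1% of all genes above the floor. They were Dsg2, Cdh11, Dsp, Dsc2, Pkp2 and Jup, which apart from Cdh11 are parts of the desmosome. Cdh8 was past 2-fold in the liver direction under all 5, against 3.86% of all genes above the floor, the same share as the values as deposited. Every other scaling moved the median of all genes towards liver cells, so this is no added check of Cdh8. In the mesothelial direction, the 14.1% under all 5 is also the share under reference gene centring alone, so the 5 scalings are not separate checks. Of the 40 genes, 8 were at control level on both arrays, against 10.1% of all genes.

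**Figure D1:**
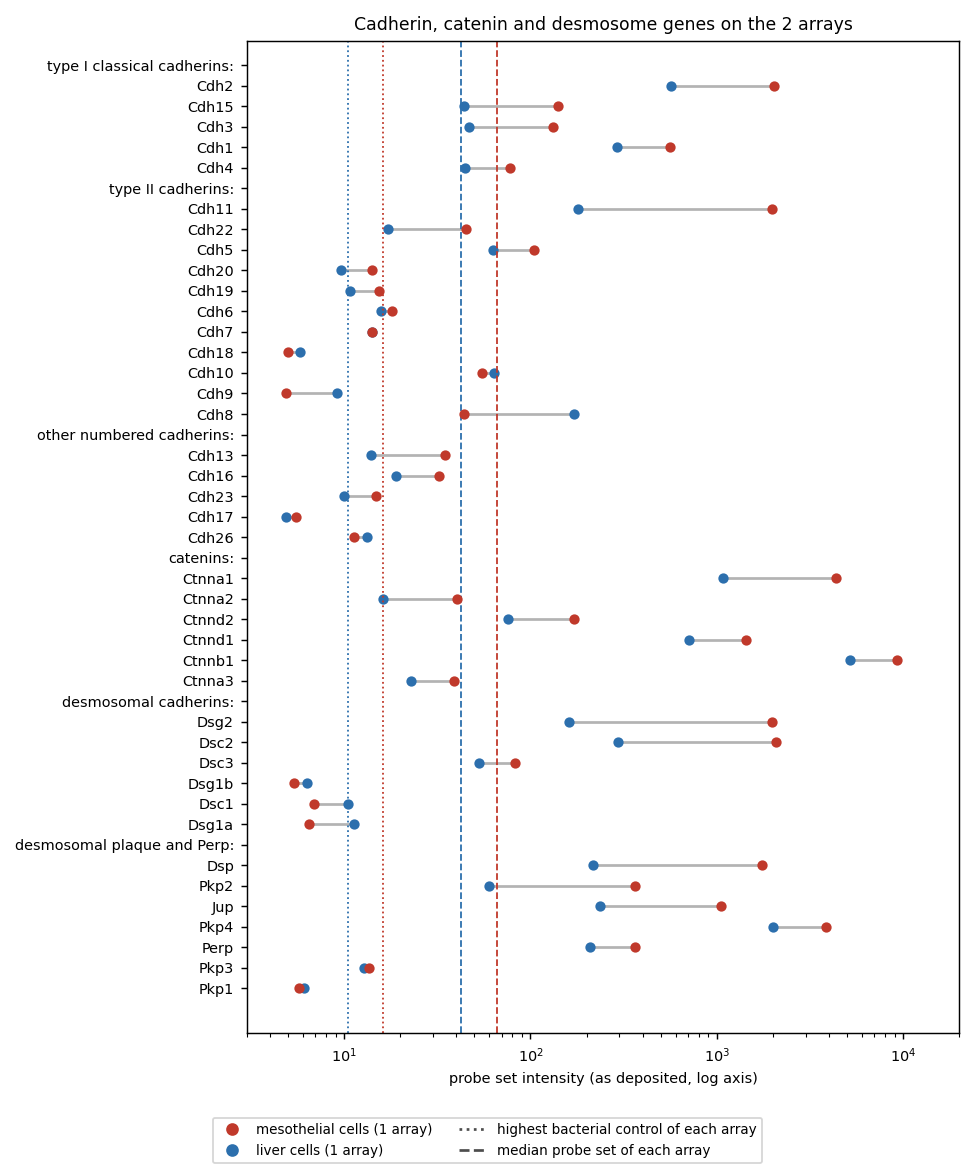
Probe set intensity (log axis, as deposited) of the 40 genes on the mesothelial array (red) and the liver array (blue), 1 point per array, grouped by role. Dotted lines mark the brightest bacterial control and dashed lines the median probe set of each array. Dsg2, Dsc2, Dsp, Pkp2, Jup and Cdh11 have the widest gaps towards mesothelial cells, and Cdh8 the widest towards liver cells.

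Desmosome genes divided by isoform. Dsg2, the desmoglein of simple epithelia and heart, read 1981.1 on the mesothelial array and 161.3 on the liver array. Its difference of 3.62, or 2.95 relative to all genes, was the largest of the 40 members under each scaling. The 6 Dsg2 probe sets ran from 0.97 to 3.80 with an SD of 1.14, and all were higher in mesothelial cells as deposited. Dsc2, the desmocollin usually found with Dsg2, read 2077.9 against 293.8, which is 7.07-fold higher. Its second probe set read 111.4 against 58.2, a difference of 0.94, and the median over both was 1.88. Both partners were brighter in the sorted cells by every probe set, by amounts that differed between probe sets.

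The other desmosomal cadherins are known mainly from stratified epithelia such as skin. Dsg1a read 6.5 against 11.3 and Dsg1b 5.4 against 6.3. Dsc1 read 6.9 against 10.5. All of these were at control level on the mesothelial array, and no fold is given for them. Dsc3 was above the floor at 82.6 against 52.8, but its difference of 0.65 equals that of the typical gene to within 0.02 and turned sign under 3 of the scalings. Its second probe set read 11.0 against 21.2. Dsg1c, Dsg3 and Dsg4 were not analysed here. The annotation places these genes in a single run on chromosome 18, in the order Dsc3, Dsc2, Dsc1, Dsg1c, Dsg1a, Dsg1b, Dsg4, Dsg3 and Dsg2, with Cdh2 next to Dsc3. Within that run the genes with the largest differences, Dsc2 and Dsg2, lie on either side of Dsc1, Dsg1a and Dsg1b. For the 6 measured desmosomal cadherins the median was 0.21, which turned sign under each of the other scalings.

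The plaque genes showed the same division. Dsp, which links the plaque to keratins, read 1749.0 against 217.1, 8.06-fold higher in mesothelial cells. A second Dsp probe set gave 2.79, while the third read 6.2 against 6.3, at control level on both arrays. Jup, the plakoglobin gene, whose protein is shared by desmosomes and adherens junctions, read 1052.0 against 236.0, 4.46-fold higher, from its only probe set. The name of that probe set marks it as one that may bind related transcripts, so Jup has no value when such probe sets are left out. Pkp2, the plakophilin of simple epithelia and heart, read 362.1 against 59.6, 6.08-fold higher. Its 4 probe sets ran from 0.05 to 2.60 with an SD of 1.12, and their median was 1.62. Pkp1 and Pkp3, the plakophilins best known from stratified or glandular epithelia, read 5.7 against 6.1 and 13.6 against 12.8 and were at control level in mesothelial cells.

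Pkp4, a plakophilin relative found also at adherens junctions, read 3855.0 against 1992.2, a difference of 0.95. Perp, a membrane protein of desmosomes that p53 and p63 are known to induce, read 363.3 against 207.7, a difference of 0.81. Relative to all genes these came to 0.29 and 0.14, and both turned sign under reference gene and hybridisation control centring. Of the 7 plaque genes with Perp, 3 were mesothelial-high, a share near the 36.2% of all genes, and none was liver-high. The median of the 7, 0.95, turned to -0.16 under reference gene centring and to -0.12 under hybridisation control centring. Among markers of squamous and gut epithelium, other epithelia rich in desmosomes, 3 of 6 were mesothelial-high, with Krt14 at 132.2 against 22.7 and an SD of 1.94 over its 3 probe sets. Trp63 read 34.5 against 67.8, but its 4 probe sets had a median of 0.14. The summed intensity of those 6 markers was 673.0 against 362.3, none was at control level, and their part in the desmosome values was not tested.

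Promoter sequences from RefSeq (GRCm38.p6) were matched by symbol for 19 of the 40 genes. Those of Dsp and Jup are shown as plaque genes that were both higher in mesothelial cells, and that of Cdh8 as the gene with the opposite direction. Each covers the 250 bases before the gene start, 5′ to 3′ on the gene's strand, at chr13:38151044-38151293 (plus strand) for Dsp, chr11:100397791-100398040 (minus strand) for Jup and chr8:99416472-99416721 (minus strand) for Cdh8. Capitals mark the GC box, GGGCGG on either strand.
Dsp: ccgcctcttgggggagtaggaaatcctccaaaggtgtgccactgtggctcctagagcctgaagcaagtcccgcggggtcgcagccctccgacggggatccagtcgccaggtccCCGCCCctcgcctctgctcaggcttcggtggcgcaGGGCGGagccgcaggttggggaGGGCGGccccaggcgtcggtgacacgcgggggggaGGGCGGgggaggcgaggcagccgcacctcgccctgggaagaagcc
Jup: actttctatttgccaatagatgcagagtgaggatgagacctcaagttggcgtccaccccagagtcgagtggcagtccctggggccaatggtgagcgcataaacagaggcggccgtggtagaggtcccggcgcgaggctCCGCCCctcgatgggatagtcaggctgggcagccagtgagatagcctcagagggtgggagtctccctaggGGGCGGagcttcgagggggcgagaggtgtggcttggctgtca
Cdh8: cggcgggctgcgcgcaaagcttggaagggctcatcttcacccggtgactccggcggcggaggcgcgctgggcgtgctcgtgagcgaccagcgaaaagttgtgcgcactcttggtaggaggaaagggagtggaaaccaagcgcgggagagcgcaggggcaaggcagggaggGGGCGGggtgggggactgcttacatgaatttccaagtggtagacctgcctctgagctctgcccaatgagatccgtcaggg
The Dsp window holds 4 GC boxes, that of Jup 2 and that of Cdh8 1. In windows of 300 bases that also take in 50 after the start, 11 of the 19 genes had a GC box in any of their windows. Of all 32851 promoters, 35.7% had one, a share of single windows and not of genes, so the 2 are not alike. The CCAAT box, searched as CCAAT on both strands, was found in Jup (2 matches in the printed bases) and Cdh8 (1) but not in Dsp. By the same counts it was in 12 of the 19 genes and in 37.4% of all promoters. The E-box CAGGTG, the form that Snail and Zeb repressors are known to bind, was searched on both strands. It is in 4 of the 19 genes and in 20.2% of all promoters. None lies in the printed bases, and the window of Dsp has 1 just past the start. In the printed bases 0 matches of different motifs overlap. Matches are a description of letters in these windows, and GC boxes were present both in genes higher in mesothelial cells and in Cdh8.

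**Figure D2:**
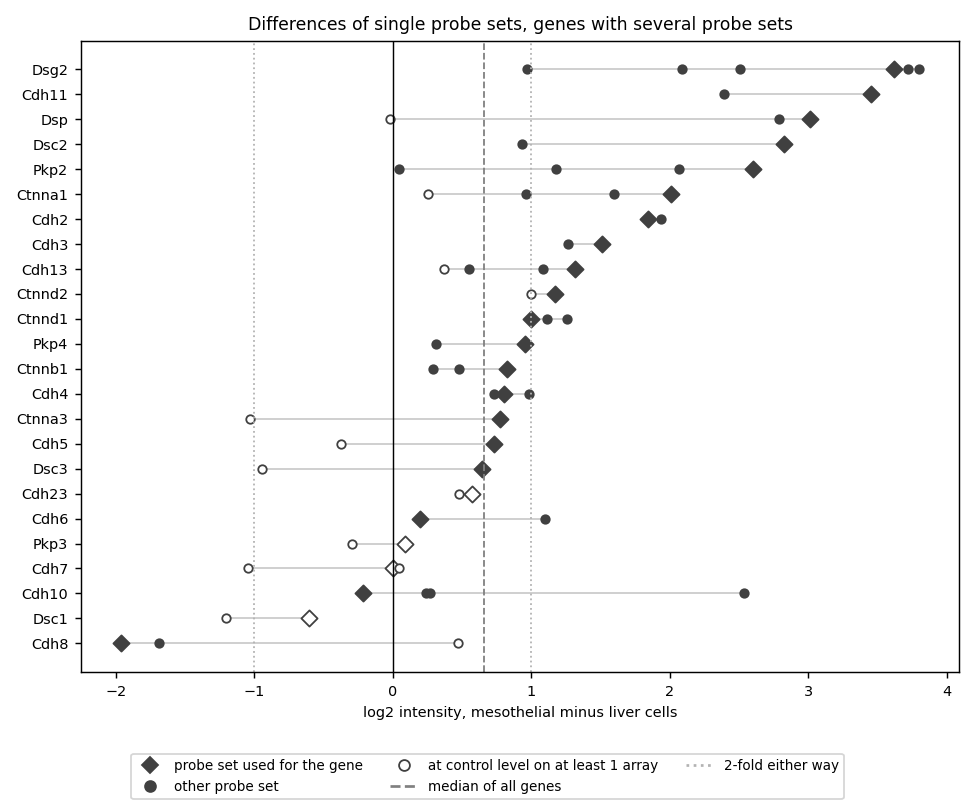
Difference (log2, mesothelial minus liver cells) of every probe set of the 24 members with more than 1 probe set. Diamonds are the probe sets used for the gene, circles the others, and open symbols are at control level on at least 1 array. The dashed line is the median of all genes, 0.66. Every probe set of Dsg2, Cdh11, Cdh2 and Cdh3 lies to the right of it, and Cdh8 and Cdh10 have 1 probe set far from the rest.

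Classical cadherins of type I, which carry most adherens junctions, were all brighter in mesothelial cells as deposited, but by unequal amounts. Cdh2, N-cadherin, typical of mesothelium, mesenchyme and muscle, read 2035.8 against 567.8, 3.59-fold higher. Its second probe set read 951.6 against 248.9, and the 2 differed by an SD of 0.07. Cdh1, E-cadherin, the cadherin of hepatoblasts and most epithelia, read 563.3 against 289.4 from its only probe set. Its difference of 0.96 was 0.30 relative to all genes and turned sign when the arrays were centred on reference genes (-0.15) or on hybridisation controls (-0.11). Cdh2 kept a positive difference under all 5 scalings, from 0.73 to 1.84, although it was under 2-fold in 2 of them.

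Cdh3, P-cadherin, which lies next to Cdh1 on chromosome 8, read 132.6 against 46.6, 2.85-fold higher, and its second probe set gave 1.27. Cdh15, M-cadherin of muscle precursors, read 140.0 against 44.2, 3.17-fold higher. Cdh4, R-cadherin, read 77.9 against 44.6, and its difference of 0.80 turned sign under 2 scalings. The Cdh15 value stands beside markers of striated muscle, of which 8 of 10 were mesothelial-high, against 36.2% of all genes. Among them Pax7 read 211.4 against 15.6, with an SD of 1.7 over its 2 probe sets, and Myf5 105.7 against 11.4. Actc1, the brightest, read 1573.9 against 194.1. Pax3 went furthest the other way at 35.7 against 57.9, although the median over its 3 probe sets was 0.37. The summed intensity of the 10 muscle markers was 3117.2 against 513.2, none was at control level, and their part in the Cdh15 and Cdh2 values was not tested. Over the 5 type I genes the median was 1.51, which lay 0.84 above that of all genes and stayed above 0 under every scaling tried.

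Type II cadherins, which are known from mesenchyme, endothelium and neurons, spread the widest. Cdh11, OB-cadherin of mesenchymal cells, read 1973.1 against 180.5, 10.9-fold higher in mesothelial cells. Its second probe set read 1093.7 against 208.9, a difference of 2.39, and the median over both was 2.92. Markers of stellate cells and other mesenchyme were mesothelial-high in 8 of 8 cases, against 36.2% of all genes, with Pdgfra at 1990.9 against 220.5. By the median over probe sets, Acta2 (-0.08), Reln (0.62) and Lrat (0.51) were under 2-fold, while the other markers were past it. The summed intensity of the 8 was 19362.7 against 3235.2, of which Col1a1 gave 11942.5 and 1890.7. None of the 8 was at control level, and their part in the Cdh11 value was not tested.

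Cdh8, a cadherin known mainly from the nervous system, read 44.0 against 171.6, 3.90-fold higher in liver cells. A second probe set read 24.2 against 77.8, a difference of -1.68. The third read 16.2 against 11.7, at control level in mesothelial cells, so the liver direction rests on 2 of 3 probe sets. Cdh8 and Cdh11 are neighbours on chromosome 8, with no protein-coding gene annotated between them, and Cdh5 follows Cdh11 in the same way. The 3 neighbours therefore differed in direction and size. Cdh10, also known from neurons, read 54.7 against 63.5 by the probe set used, but another read 137.2 against 23.7, a difference of 2.53. The 2 remaining Cdh10 probe sets gave 0.24 and 0.27, so no direction is given for it. Of 6 neural and neural crest markers measured, 2 were mesothelial-high, a share near the 36.2% of all genes, and none was liver-high, against 4.16%. Ncam1 read 5209.8 against 865.3, and its 7 probe sets had an SD of 1.07. Elavl4 went furthest the other way, at 31.7 against 46.0. Sox2, counted as mesothelial-high though under the floor, was at control level in liver cells and at least 1.61-fold higher on the mesothelial array. Foxd3 was at control level on both arrays. The part of neural cells in the Cdh8 and Cdh10 values was not tested.

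Cdh5, VE-cadherin of endothelium, read 105.0 against 63.3. Its difference of 0.73 was 0.07 relative to all genes, and its second probe set, at 13.2 against 17.1, was at control level in mesothelial cells. Of 12 endothelial markers, 3 were mesothelial-high, against 36.2% of all genes, and none was liver-high, against 4.16%. The median of the 12 was 0.38. Pecam1 read 84.9 against 102.9 and Stab2 695.4 against 201.4. Summed over the 12, intensity was 3479.8 against 1971.1, and no endothelial marker was at control level on either array. The Cdh5 difference was -0.38 under reference gene centring and 0.09 under median centring, and the median of the endothelial markers was below 0 under each scaling other than as deposited. The part of endothelial cells in the Cdh5 value was not tested.

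The remaining type II genes were under the floor. Cdh22, known from brain, read 45.3 against 17.2, 2.63-fold higher in mesothelial cells. Cdh6, known from kidney and brain, read 18.0 against 15.7 by the probe set used and 23.3 against 10.9 by the other. Cdh7, Cdh9, Cdh18, Cdh19 and Cdh20 were at control level in mesothelial cells, at intensities from 4.9 to 15.3, and are given no direction. Cdh7 and Cdh19 are adjacent on chromosome 1, and Cdh6, Cdh9 and Cdh10 follow one another on chromosome 15. The median of the 11 type II genes, 0.20, turned sign under each of the other scalings.

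Among cadherins outside the classical types, none reached the floor. Cdh13, T-cadherin, which is held by a lipid anchor and has no catenin-binding tail, read 34.6 against 13.9, 2.49-fold higher in mesothelial cells, and its 4 probe sets ran from 0.37 to 1.32. Cdh16, of kidney epithelium, read 32.2 against 19.0. Cdh17, of intestine, Cdh23, of the tip links of hair cells, and Cdh26 were at control level in mesothelial cells.

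Among catenins, the cytoplasmic partners, no difference as deposited was as large as those of Dsg2, Dsp, Dsc2, Pkp2 and Jup. Ctnna1, alpha-catenin, which couples the complex to actin, read 4368.1 against 1084.7, 4.03-fold higher in mesothelial cells, by a probe set whose name marks possible binding of related transcripts. A probe set without that mark read 2166.6 against 717.5, a difference of 1.59, and the median over 4 probe sets was 1.28. Ctnnb1, beta-catenin, which also acts in Wnt signalling, read 9199.6 against 5192.0, and its difference of 0.83 was 0.16 relative to all genes. The other Ctnnb1 probe sets gave 0.48 and 0.29. The 3 Ctnnb1 probe sets thus lay on both sides of the typical gene's 0.66, while plakoglobin, a close relative of beta-catenin, differed by 2.16.

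Ctnnd1, p120-catenin, which holds cadherins at the membrane, read 1425.3 against 711.9. Its difference lay on the 2-fold threshold, its other probe sets gave 1.11 and 1.26, and it turned sign under reference gene and hybridisation control centring. Ctnnd2, delta-catenin, known mainly from neurons, read 171.6 against 76.0, 2.26-fold higher. Ctnna2, the neural alpha-catenin, was under the floor at 40.4 against 16.1. Ctnna3, the alpha-catenin of heart and testis, was also under it, and its 2 probe sets went opposite ways, 0.77 and -1.03. Of the 6 catenins, 4 were mesothelial-high, against 36.2% of all genes, and none was liver-high. After median centring, 1 of the 4 catenins above the floor was still mesothelial-high, against 24.1% of such genes. Their median of 1.09 was 0.42 relative to all genes. It turned to -0.03 under reference gene centring and was 0.01 under hybridisation control centring.

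**Figure D3:**
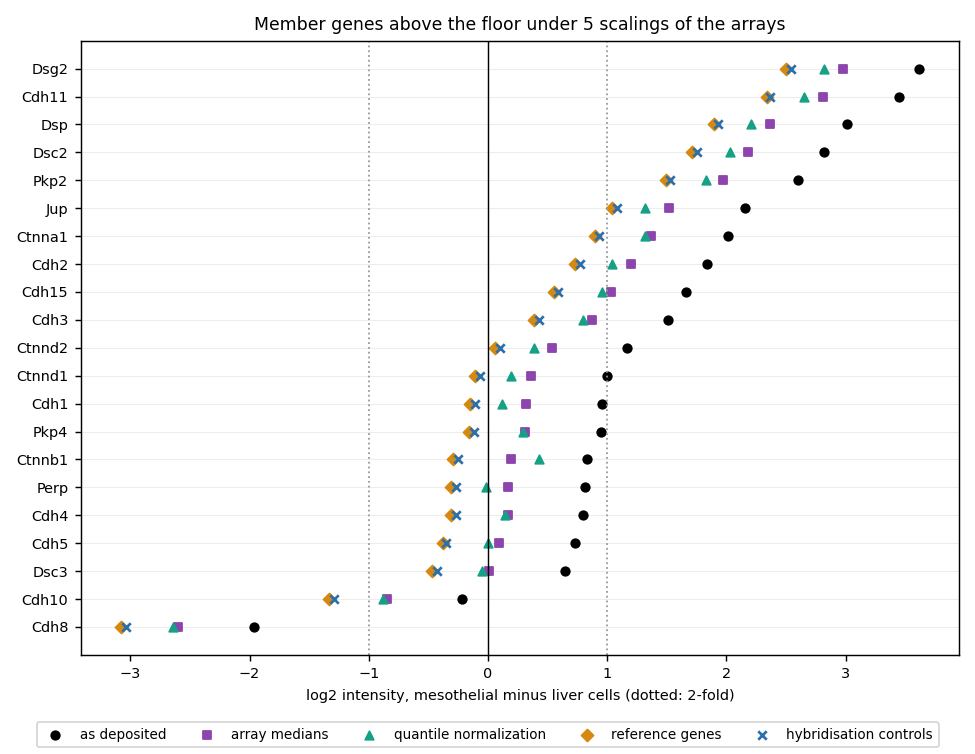
Difference (log2, mesothelial minus liver cells) of the 21 members above the floor, as deposited (black) and after 4 other scalings of the arrays, with 2-fold marked by dotted lines. Dsg2, Cdh11, Dsp, Dsc2, Pkp2 and Jup stay right of the upper line, Cdh8 stays left of the lower line, and 8 genes from Ctnnd1 to Dsc3 cross 0.

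Scaling divided the 21 genes above the floor into 13 that kept the sign of their difference under all 5 scalings and 8 that did not. Every other scaling moved the median of all genes towards liver cells, reference gene centring the most, by -1.11. A negative difference could therefore not turn under a centring, and a positive one kept its sign there by its size as deposited. The split follows that size and is not 5 separate checks. Among all genes above the floor, 56.9% kept their sign. The genes that kept a positive sign were, besides those past 2-fold throughout, Ctnna1, Cdh2, Cdh15, Cdh3 and Ctnnd2, with lowest values from 0.06 for Ctnnd2 to 0.90 for Ctnna1. Cdh8 and Cdh10 were the members above the floor that kept a negative one by the probe set used. The other Cdh10 probe sets gave 2.53, 0.27 and 0.24 as deposited, so no direction is given for Cdh10. The genes whose sign turned were Ctnnd1, Cdh1, Pkp4, Ctnnb1, Perp, Cdh4, Cdh5 and Dsc3.

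Other genes of the adherens junction were mostly brighter in mesothelial cells. Of 18 measured partners, 15 were mesothelial-high, against 36.2% of all genes, and none was liver-high. Their median of 1.69 lay 1.03 above that of all genes. After median centring, 10 of the 17 partners above the floor were mesothelial-high, against 24.1% of such genes, and 1 was liver-high, against 9.34%. The LIM protein gene Ajuba, which binds alpha-catenin, read 959.6 against 87.4. Magi1, a scaffold of cell contacts, read 300.7 against 33.8, but its 5 probe sets had a median of 0.67. Shroom3, which recruits contractile actin to junctions, read 212.9 against 33.1, but its 5 probe sets had a median of 0.70. Zyxin (Zyx) read 977.9 against 168.5. Afdn, which links nectins to actin, was 3.86-fold higher, but its 2 probe sets had a median of 1.01. Nectin2 and Nectin3 were 3.90-fold and 3.98-fold higher, and the 6 Nectin3 probe sets had an SD of 1.73 and a median of 2.17. Vinculin (Vcl), which binds stretched alpha-catenin, read 6812.0 against 2516.5. Pkn2, a kinase of junctions, went furthest the other way at 526.4 against 700.1, although the median over its probe sets was 0.27. The median of the partners stayed above 0 under every scaling tried.

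Repressors of cadherin genes were also brighter in the sorted cells. Of 7, 6 were mesothelial-high, against 36.2% of all genes, and the median of the 7, 1.87, lay 1.20 above that of all genes. After median centring, 3 of the 6 repressors above the floor were mesothelial-high, against 24.1% of such genes. Snai2, Slug, read 481.2 against 94.8, Twist1 500.0 against 101.8, and Tcf4, a helix-loop-helix factor, 2486.8 against 682.0. Zeb1 and Zeb2 were 2.33-fold and 2.55-fold higher. The median over the 4 Zeb1 probe sets was 0.83 and that over the 5 Zeb2 probe sets 0.35, both under 2-fold. Snai1 lay under the floor at 60.7 against 12.0, and Tcf3, which encodes E2A proteins, read 298.7 against 347.7. Cdh1, which these factors are known to repress, was measured at 0.30 relative to all genes on the same arrays, as given above.

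Nuclear partners and inhibitors of beta-catenin leaned the same way. Of 12 measured, 8 were mesothelial-high, against 36.2% of all genes, and none was liver-high. The median of the 12, 1.57, lay 0.90 above that of all genes. After median centring, 5 of the 11 above the floor were mesothelial-high, against 24.1% of such genes. Axin2, a common target and inhibitor of the Wnt pathway, read 321.1 against 31.9, although its 2 probe sets had an SD of 2.16. Bcl9, a co-activator that binds beta-catenin, read 1534.7 against 218.2, and the DNA-binding partners Lef1 and Tcf7l1 were each 4.41-fold higher. Ctnnbip1, which blocks beta-catenin from those partners, read 162.7 against 77.8, and Pygo2 had the smallest difference, 0.58. The medians of repressors and of nuclear partners stayed above 0 under every scaling tried.

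**Figure D4:**
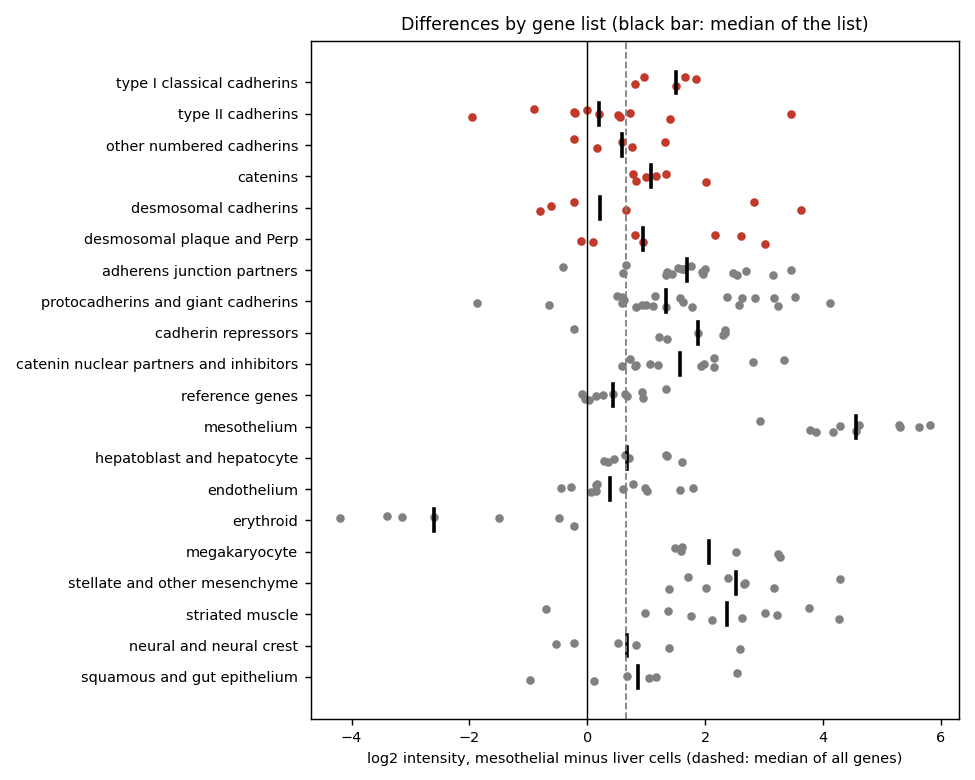
Difference (log2, mesothelial minus liver cells) of each gene, by list, with a black bar at the median of each list and a dashed line at the median of all genes. The member groups (red) have medians from 0.20 to 1.51, the adherens junction partners 1.69, the mesothelial markers 4.56 and the erythroid markers -2.60.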

How the data were processed

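The 2 arrays held mesothelial and liver cell RNA, 1 each. From 20 ng of total RNA, biotin-labelled cDNA was made with NuGEN Ovation kits, per the labels' protocols. The deposited intensities run from 3.2 to 27470.4, so they are linear and not log2. RMA and Partek are named in the submitters' processing notes, with no version or role, and how the arrays were scaled to each other is not given there. A free-text label describes embryos far younger than E12.5, and E12.5 was used.

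Log2 was taken of the deposited intensities. Gene symbols came from the platform annotation. Of probe sets other than the 64 controls, 34945 had 1 symbol, 932 several and 9160 none. All 40 member genes matched RefSeq by gene ID, and gene order was taken from RefSeq for GRCm38.p6. A gene took the probe set of highest mean over both arrays, and 9010 genes had a choice. Folds against a value at control level are written as at least N-fold. Probe sets of 1 gene, where above the floor, had a pooled SD of 0.70 over 5323 genes, which holds no variation between embryos, sorts or arrays. The number of arrays limits the precision, and 76.8% and 82.4% of probe sets were above control level.

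The members and gene lists were chosen with earlier results of these data known. All members could be named, and from other lists up to 4 genes above the floor with the largest difference either way and the 1 furthest the other way. Genes named outside that, such as Afdn, Nectin2, Vcl, Ctnnbip1 and Snai1, and the motifs were chosen after their values were seen. Collapsing to genes was tested on simulated data. Python 3.11.15, pandas 2.3.3 and NumPy 2.4.6 were used. The alternatives are given in the closing section.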

Additional observations from a re-analysis of the deposited data

How the results depend on the processing

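Scaling between the arrays mattered most, since it moves all genes alike. Centring on reference genes moved the median of all genes by -1.11 and turned the median of the 40 members to -0.33, with 6 genes above the floor mesothelial-high and 2 liver-high. All genes then had a median of -0.45, with 14.1% of those above the floor mesothelial-high and 18.9% liver-high. This setting used each array's median level over the reference genes. It shifted genes further than the 0.43 by which the reference genes differed as deposited, and left those at a median of -0.68. A sign that turned under it is therefore no comparison with reference genes held at 0. Centring on hybridisation controls, added after the data were seen, gave -0.29, 6 and 2. Ctnnd1 became -0.11 and -0.07 under these settings. A floor at the 75th percentile left 0 liver-high genes, and a 4-fold threshold left 7 and 0, by construction. Taking each gene's median probe set, omitting probe sets that may bind related transcripts, centring on array medians, quantile normalization, control-level low values and no floor kept the sign of the members' median and both counts within 1.5 times, with 8 to 15 mesothelial-high genes. Of 279 values of single genes under an alternative, 54 had another sign than as deposited, and 2 of these, both of Ctnnd1, had been past 2-fold. Of the other 277, 174 moved by less than the pooled SD between probe sets and 103 by more. Each centring moved every gene by 1 constant, so these counts say nothing of single genes there. By that constant alone, centring on array medians left all 40 genes within the SD. Reference gene and hybridisation control centring each put 39 of the 277 past it. No paired analysis was possible because each group had 1 array. The cause of the intensity gap between the arrays was not tested.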

Other observations

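Cadherins beyond the numbered family were also measured. Of 23 genes for protocadherins, giant cadherins and their relatives, 16 passed the floor, 12 of them mesothelial-high and 1 liver-high, against 45.8% and 3.86% of all genes above the floor. The median of the 23, 1.34, lay 0.68 above that of all genes and stayed above 0 under every scaling tried. Celsr1, a planar polarity cadherin, read 239.8 on the mesothelial array and 13.9 on the liver array, 17.3-fold higher. Dchs1, the ligand of Fat4 in planar polarity and growth control, was 9.00-fold higher, and Fat4 itself 3.44-fold, although its 2 probe sets had an SD of 1.73. Fat1 read 5124.1 against 865.9, and the calsyntenin gene Clstn1 2117.8 against 225.4. Clstn2 was at control level in liver cells and at least 9.04-fold higher in mesothelial cells. Pcdh7 went the other way at 33.8 against 123.4, although the median over its 3 probe sets was 0.17. Celsr3, Pcdh1 and Pcdh20 were at control level on both arrays.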
